A study of Mus musculus with 12 samples.

Results

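Translation initiation factors were described here in macrophages of mice of 2 genotypes on 2 diets. The factors were the genes whose symbol began with Eif1, Eif2, Eif3, Eif4, Eif5 or Eif6, leaving out the eIF2 kinases named Eif2ak. The count table of 12339 genes held 51 of them. All 51 were tested, and each had at least 10 counts in every library, with 47 to 29139 counts per gene and library.

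Every mouse was injected at 8 weeks of age with AAV8PCSK9, a viral vector that takes the LDL receptor off hepatocytes, so the chow groups carried it too. Wild-type mice (WT) and mice labelled meKO were then kept for 4 weeks on chow or on a high-fat Western diet (HFD). Sterile thioglycolate then recruited macrophages to the peritoneal cavity, from which they were washed out, and there were 3 libraries in each of the 4 groups: WT on chow, WT on HFD, meKO on chow and meKO on HFD. By the title of the series the gene under study is the myeloid kinase PKC epsilon, encoded by Prkce; the driver that would limit its loss to myeloid cells is not given in the sources used here. The labels speak of more mice than there were libraries to analyse here, 12 in all, and do not say whether a library came from 1 mouse, so the p-values measure the spread between these libraries.

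Initiation begins when eIF2, bound to GTP, brings the initiator tRNA to the small ribosomal subunit. There eIF1, eIF1A, eIF3 and eIF5 take part in scanning for the start codon. The mRNA arrives through eIF4F, made of the cap-binding protein eIF4E, the scaffold eIF4G and the RNA helicase eIF4A. Cells control the first step through eIF2B, the exchange factor that reloads eIF2 and is blocked when eIF2 is phosphorylated. They control the cap step through the 4E-binding proteins, which hold eIF4E away from eIF4G until mTORC1 phosphorylates them. In macrophages both controls are known to shape inflammatory responses.

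Library totals ran from 25844958 to 37282772 counts, and the factors held 0.58% to 0.628% of them. The targeted gene was lower in meKO, where Prkce stood at 0.95 to 1.78 CPM (counts scaled to library size with TMM factors) against 2.01 to 4.44 CPM in WT (log2 ratio -1.17, exact two-sided permutation test, p = 0.00216, n = 6 libraries per genotype). All 8 macrophage markers were listed, and 7 of them without Lyz2 summed to 4943 to 6250 CPM in every library. Lyz2, lysozyme of myeloid cells, was at 30482 to 53835 CPM in WT and 16293 to 21309 CPM in 5 meKO libraries, and meKO chow replicate 2 stood apart at 69.3 CPM. WT chow replicates 1 and 2 also stood apart: across genes, a library's deviation from the mean rose with transcript length (Spearman's rho 0.64 and 0.68 over 11526 genes), against -0.46 to 0.13 in the other 10 libraries. Counts of factors called for diet in WT are given with and without WT chow replicates 1 and 2. Those for diet averaged over genotypes are also given without meKO chow replicate 2. Values of single factors are mostly given with all libraries.

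Levels of different factors were compared per length, as CPM per kilobase of the longest annotated transcript, averaged over the 12 libraries. Eif5a, whose hypusinated product helps the ribosome through difficult peptide bonds, was highest at 273. The eIF3 subunit genes Eif3k, Eif3h and Eif3e followed at 228, 198 and 139. Across libraries Eif5a ran from 203 to 357 and Eif3k from 156 to 287, so these neighbours in the order overlapped. Next came Eif4b, a helper of the eIF4A helicase, at 109, and the helicase genes Eif4a2 and Eif4a1 at 108 and 105, whose ranges also overlapped. The lowest were Eif5a2, the second eIF5A gene, at 2.31, Eif3j1 at 2.2, the eIF2B subunit gene Eif2b3 at 1.98 and Eif4a3l1 at 1.42. Among the binding proteins Eif4ebp1 was at 25.5 and Eif4ebp2 at 3.36, and their ranges did not overlap on this scale.

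**Figure D1:**
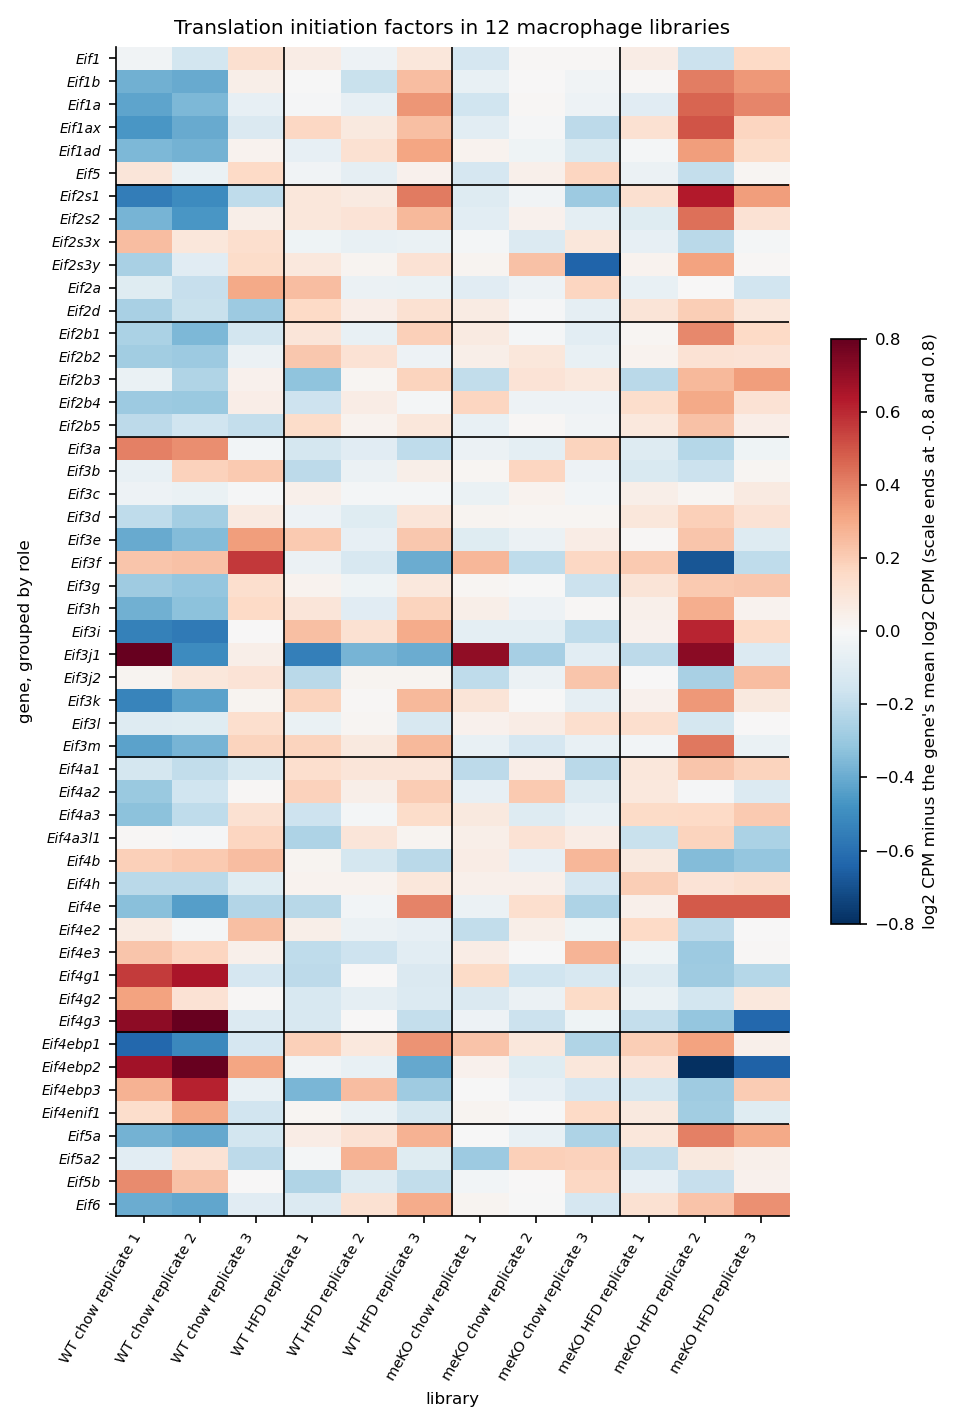
Heat map of the 51 initiation factor genes (rows, grouped by role) in the 12 libraries (columns), coloured by log2 CPM minus the gene's mean over all libraries, with the colour scale ending at -0.8 and 0.8. WT chow replicates 1 and 2 are blue for Eif2s1, Eif3i and Eif4ebp1 and red for Eif4g1, Eif4g3 and Eif4ebp2, while Eif3c is nearly white across its row.

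The first comparison asked how HFD changed the factors in WT macrophages. In all, 9 genes rose and 5 fell, so 14 of 51 (27.5%) had a Benjamini-Hochberg adjusted p under 0.05 in edgeR's quasi-likelihood test over all genes, which called 21.3% of all genes. By direction, 17.6% of the factors were called higher against 9.5% of all genes, and 9.8% were called lower against 11.8%. Genes that rose encode the regulated subunit of eIF2 (Eif2s1), the tRNA-delivering factor eIF2D (Eif2d), the catalytic subunit of eIF2B (Eif2b5), eIF1A (Eif1ax), eIF5A (Eif5a), eIF6 (Eif6), 2 eIF3 subunits (Eif3i and Eif3k) and the binding protein 4E-BP1 (Eif4ebp1). The genes that fell were the scaffolds Eif4g1 and Eif4g3, the binding protein Eif4ebp2, the eIF3 core subunit Eif3a and Eif5b, the GTPase that joins the ribosomal subunits. In CPM the WT HFD libraries lay wholly above the WT chow libraries for 14 factors and wholly below for 8, which makes 22 of 51 without overlap (43.1%) against 39.3% of all genes. Scaling by library totals gave 5 higher and 8 lower in place of 9 and 5. The count in WT was 0 without WT chow replicate 1, WT chow replicate 2 or WT HFD replicate 3, 1 without WT HFD replicate 1, 7 without WT HFD replicate 2 and 29 without WT chow replicate 3. For counts by library totals, from the 6 WT libraries alone or with a library left out, here and below, the share over all genes was not counted.

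In meKO no factor was called for diet, where edgeR called 0.105% of all genes. At an unadjusted p under 0.05 there were 8, all higher on HFD (15.7% of the factors, against 15.9% of all genes). By limma-voom with library quality weights 2 were called, both higher, against 3.23% of all genes, and DESeq2 called 0, against 1.84%. The meKO libraries did not overlap between diets for 15 factors (14 above on HFD, 1 below), or 29.4% against 19.7% of all genes. The sign of the diet difference was the same in both genotypes, which share no libraries, for 44 of 51 factors (86.3%), against 76.4% of all genes. It was the same for all 14 called in WT: among the 9 that rose the median log2 change was 0.46 (WT) beside 0.28 (meKO), and among the 5 that fell it was -0.5 beside -0.16. In both genotypes the diet difference went with transcript length (Spearman's rho over the factors -0.44 in WT and -0.45 in meKO). The agreement in sign was not counted with the length correction described below, nor over all genes called in WT.

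The difference between genotypes in the diet effect was itself tested. No factor passed for this interaction by edgeR, which called 0.0162% of all genes. At an unadjusted p under 0.05 there was 1 factor against 6.13% of all genes, Eif4ebp1, whose diet effect was lower in meKO (log2 difference -0.48 ± 0.22, SE, adjusted p = 0.797). The called genes in WT are therefore not shown to respond differently in meKO. With both genotypes averaged, 23 of 51 factors were called for diet (45.1%), against 30.2% of all genes. Of these 15 were higher (29.4%, against 14.9% of all genes) and 8 lower (15.7%, against 15.3%), and the 14 called in WT, whose libraries enter this average, were among them. By library totals the split was 9 higher and 9 lower. The average gave 9 without WT chow replicate 1 or 2, 8 without WT HFD replicate 3, 7 without meKO chow replicate 3, 10 without meKO HFD replicate 2, 13 without WT HFD replicate 1 or meKO HFD replicate 3 and 19 without meKO chow replicate 2, the library low in Lyz2.

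**Figure D2:**
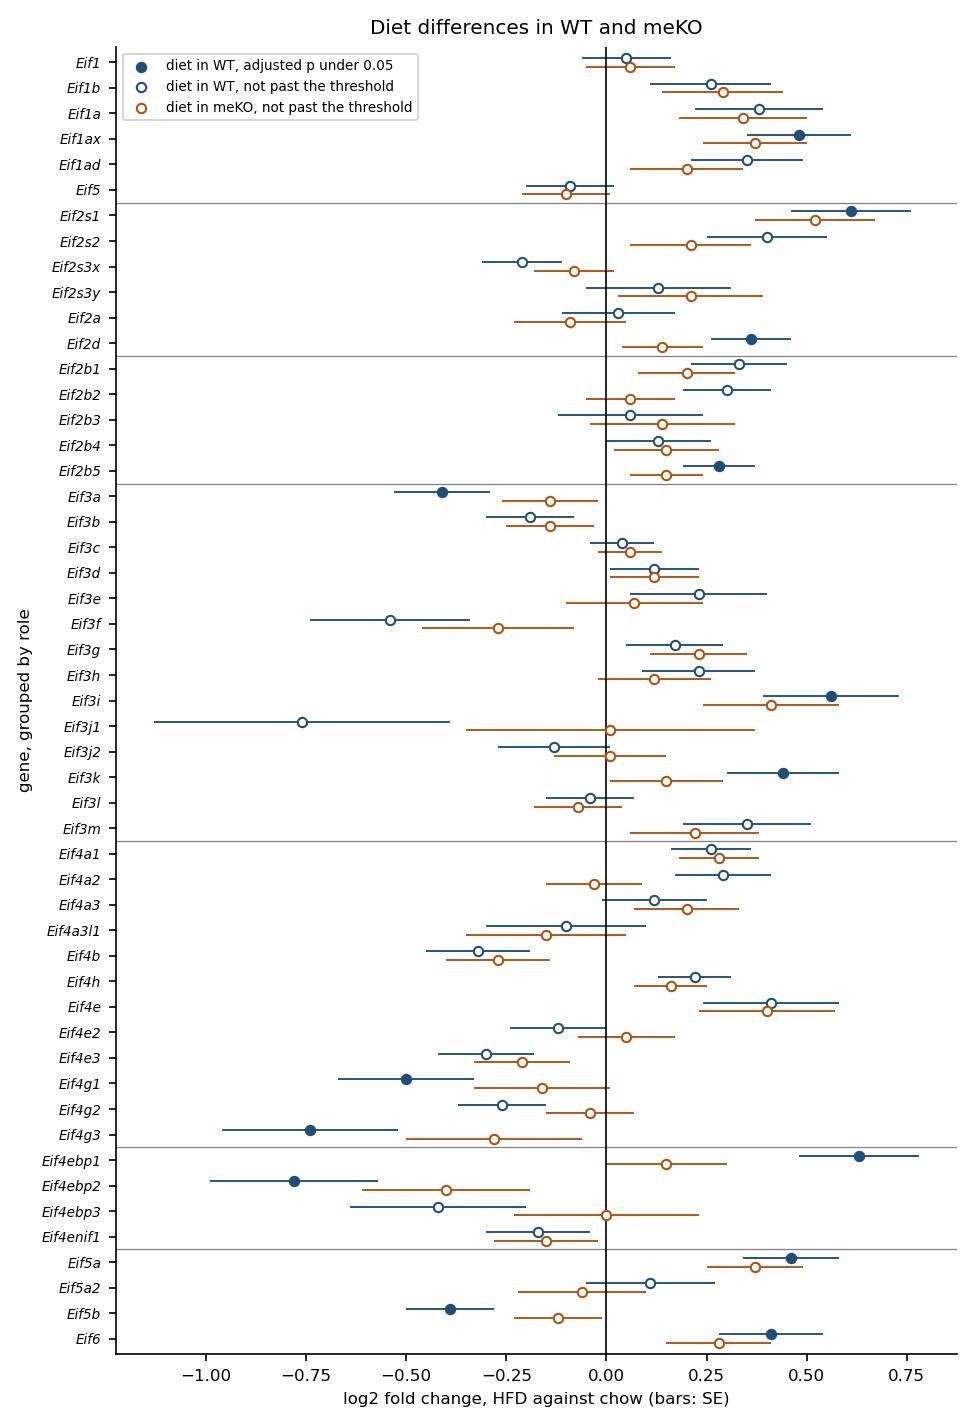
Log2 fold change of HFD against chow for each of the 51 genes, in WT (blue) and in meKO (orange), with bars for the standard error; filled points had an adjusted p under 0.05. The 14 filled points are all in WT, and for each of them the meKO point lies on the same side of 0.

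Among the eIF2 genes, Eif2s1 (chr12:78862072-78887010, GRCm38.p6) encodes the subunit with the serine that the stress kinases phosphorylate. It stood at 79.9, 82.8 and 102 CPM in WT chow and 125, 123 and 156 CPM in WT HFD, and at 109, 115 and 95.9 CPM in meKO chow and 128, 182 and 148 CPM in meKO HFD. In both genotypes all HFD libraries were above all chow libraries. The log2 change was 0.61 ± 0.15 in WT (SE, edgeR adjusted p = 0.0188) and 0.52 ± 0.15 in meKO (adjusted p = 0.177), and averaged it was 0.56 ± 0.10 (adjusted p = 0.00509). The beta subunit gene Eif2s2 had averages of 47.2 ± 9.31 CPM in WT chow and 62.1 ± 4.01 CPM in WT HFD (SD, n = 3) and was called only in the average over genotypes (0.31 ± 0.11, adjusted p = 0.0451).

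The gamma subunit of eIF2 has an X-linked gene, Eif2s3x, and a Y-linked partner, Eif2s3y. Eif2s3x was at 52.3, 46.9 and 48.4 CPM in WT chow and 43, 42.2 and 42.5 CPM in WT HFD, with meKO libraries at 43.5, 40.8 and 46.8 CPM on chow and 42.1, 37.9 and 43.6 CPM on HFD. It was lower in every WT HFD library than in any WT chow library, but its log2 change of -0.21 ± 0.10 did not pass (adjusted p = 0.137). Eif2s3y was at 53.8, 60.4 and 71.4 CPM in WT chow and 68.3, 65.3 and 69.8 CPM in WT HFD, with meKO libraries at 65.5, 75.8 and 41.4 CPM on chow and 65.6, 80.6 and 64.9 CPM on HFD. Its lowest library was meKO chow replicate 3, and its groups overlapped. As a description, the count ratio of Eif2s1 to Eif2s3x was 1.53 to 2.1 in WT chow and 2.91 to 3.67 in WT HFD, and 2.05 to 2.83 in meKO chow and 3.04 to 4.79 in meKO HFD.

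Eif2d was at 18.2, 19.2 and 17.8 CPM in WT chow and 24.3, 22.6 and 23.7 CPM in WT HFD, with meKO libraries at 22.8, 21.6 and 20.7 CPM on chow and 23.4, 24.9 and 23.2 CPM on HFD. HFD lay above chow without overlap in both genotypes, by 0.36 ± 0.10 in WT (adjusted p = 0.027) and 0.14 ± 0.10 in meKO (adjusted p = 0.491). Of the 5 eIF2B subunit genes, all had positive diet differences in both genotypes, with medians of 0.28 in WT and 0.15 in meKO. Over all genes 5795 of 12339 were positive in WT and 6073 in meKO. With each library corrected for transcript length and GC content the medians were 0.18 and 0.14, and Eif2b2 stood at -0.03 in meKO. Eif2b5 passed, at 39.4, 40.8 and 40 CPM in WT chow and 50.6, 46.5 and 48.6 CPM in WT HFD, with meKO libraries at 43.9, 46 and 44.8 CPM on chow and 48.4, 53.7 and 47.4 CPM on HFD. Again no HFD library reached down to chow within a genotype. The change was 0.28 ± 0.09 in WT (adjusted p = 0.0498) and 0.15 ± 0.09 in meKO (adjusted p = 0.423). Eif2b1, the alpha subunit gene, was called in the average alone (0.27 ± 0.08, adjusted p = 0.0299), and Eif2b2, Eif2b3 and Eif2b4 in neither.

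Of the 6 factors grouped here under start site selection and binding of the small subunit, 1 rose in WT and 5 did not pass. Eif1ax was at 36, 37.5 and 45.9 CPM in WT chow and 55.7, 52.4 and 58.7 CPM in WT HFD, with meKO libraries at 46.8, 49.4 and 43 CPM on chow and 54.1, 70.4 and 55.9 CPM on HFD. It did not overlap between diets in either genotype and changed by 0.48 ± 0.13 in WT (adjusted p = 0.0244) and 0.37 ± 0.13 in meKO (adjusted p = 0.237). Its autosomal copy Eif1a passed in the average (0.36 ± 0.11, adjusted p = 0.0284). Eif5, the GTPase activator of eIF2, was at 276, 249 and 288 CPM in WT chow and 253, 246 and 264 CPM in WT HFD, with meKO libraries at 235, 266 and 291 CPM on chow and 250, 226 and 261 CPM on HFD. These 4 groups overlapped, and the diet difference of Eif5 was -0.09 ± 0.11 in WT (adjusted p = 0.54).

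The 14 eIF3 genes had diet differences of both signs in WT, 8 positive and 6 negative. In WT, 2 rose, 1 fell and 11 did not pass, with a median log2 change of 0.08 beside -0.03 over all genes. Of all genes 9.5% were called higher and 11.8% lower. With each library corrected for transcript length and GC content, no eIF3 gene was called in WT and the median was -0.08. Eif3i was at 73.8, 72.8 and 108 CPM in WT chow and 127, 117 and 132 CPM in WT HFD, with meKO libraries at 102, 102 and 93.6 CPM on chow and 110, 164 and 120 CPM on HFD. Every HFD library was above every chow library within a genotype (0.56 ± 0.17 in WT, adjusted p = 0.0331, and 0.41 ± 0.17 in meKO, adjusted p = 0.278). Eif3k averaged 168 ± 35.8 CPM in WT chow and 228 ± 19.4 CPM in WT HFD (SD, n = 3), and the 2 groups overlapped by 1 library.

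Eif3a, the largest eIF3 subunit and the scaffold of its core, went the other way. It was at 338, 332 and 252 CPM in WT chow and 232, 240 and 222 CPM in WT HFD, with meKO libraries at 248, 242 and 290 CPM on chow and 238, 219 and 250 CPM on HFD. The WT groups did not overlap, but 2 of the WT chow libraries were far above the third. The change was -0.41 ± 0.12 in WT (adjusted p = 0.0335) and -0.14 ± 0.12 in meKO (adjusted p = 0.569). Eif3f, another subunit, fell in the average over genotypes (-0.40 ± 0.14, adjusted p = 0.041). Eif3c was the steadiest of the 51 factors, with 1.09 times between its lowest and highest library. Its means were 269 ± 4.02 CPM (chow) and 276 ± 5.41 CPM (HFD) in WT and 273 ± 7.96 CPM (chow) and 285 ± 5.33 CPM (HFD) in meKO (SD, n = 3).

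Values of 2 closely related pairs are uncertain, because reads that fit both copies could be counted for either. Eif3j2 shared 90.8% of its 50-base windows with Eif3j1, and Eif4a3 shared 12.1% with Eif4a3l1. Eif3j1 stood out in 3 libraries of different groups, at 22.4 CPM in WT chow replicate 1, 18.2 CPM in meKO chow replicate 1 and 18.4 CPM in meKO HFD replicate 2, against 7.61 to 11.5 CPM in the other 9. Eif3j2 ran from 40.4 to 57.4 CPM and was not high in those libraries. Neither gene passed in any of the 7 contrasts. Exons of Eif4ebp3 (67.3% of their bases) lie within another gene on the same strand, and 32.9% of Eif3d lies opposite an antisense gene, so their counts may hold reads of both. For Eif5b 15.9% lies opposite Rev1.

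At the cap, Eif4e and Eif4a1 rose in the average over genotypes and Eif4g1 and Eif4g3 fell. With each library corrected for transcript length and GC content, Eif4e alone of these 4 was still called, at 0.49. The cap-binding gene Eif4e was at 57.6, 53.4 and 61.7 CPM in WT chow and 62.3, 71.6 and 95.7 CPM in WT HFD, with meKO libraries at 70.3, 79.7 and 61.1 CPM on chow and 74.6, 102 and 102 CPM on HFD. The WT groups were apart by less than 1 CPM at their nearest and the meKO groups overlapped. Eif4e passed in the average (0.41 ± 0.12, adjusted p = 0.0226), with 0.41 ± 0.17 in WT (adjusted p = 0.0852) and 0.40 ± 0.17 in meKO (adjusted p = 0.286).

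Eif4a1, the main helicase gene, was at 168, 161 and 170 CPM in WT chow and 203, 198 and 198 CPM in WT HFD, with meKO libraries at 160, 192 and 159 CPM on chow and 197, 216 and 209 CPM on HFD. It did not overlap between diets in either genotype and rose in the average by 0.27 ± 0.07 (adjusted p = 0.0138), but was at 0.10 with the correction (adjusted p = 0.243). Eif4h, a helicase helper, rose in the average by 0.19 ± 0.06 (adjusted p = 0.0394). The other helper, Eif4b, fell in it by 0.30 ± 0.09 (adjusted p = 0.0271), from 485 ± 9.79 to 388 ± 33 CPM in WT and from 445 ± 52.3 to 368 ± 62.6 CPM in meKO (SD, n = 3). Eif4e3, a cap-binding relative of eIF4E, also fell in the average (-0.26 ± 0.08, adjusted p = 0.0322).

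The scaffolds fell in WT through 2 high chow libraries. Eif4g1 was at 151, 161 and 93.3 CPM in WT chow and 88.6, 103 and 94.8 CPM in WT HFD, with meKO libraries at 114, 91.9 and 93.7 CPM on chow and 95.5, 84.3 and 87.7 CPM on HFD. Eif4g3 was at 80.7, 103 and 45.6 CPM in WT chow and 44.9, 49.3 and 43 CPM in WT HFD, with meKO libraries at 47.8, 43.6 and 48 CPM on chow and 43, 39.7 and 31.8 CPM on HFD. For both genes WT chow replicate 3 lay inside the range of WT HFD, so the WT groups overlapped. The changes in WT were -0.50 ± 0.17 for Eif4g1 (adjusted p = 0.0491) and -0.74 ± 0.22 for Eif4g3 (adjusted p = 0.0316). Without WT chow replicates 1 and 2, a setting chosen after seeing the data, they were 0.03 and 0.01, and no factor was called for diet in WT or in the average.

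The 2 main 4E-binding protein genes, Eif4ebp1 (chr8:27260327-27275656) and Eif4ebp2 (chr10:61428491-61452790), changed in opposite directions in WT. Eif4ebp1 was at 32.2, 34.8 and 45.4 CPM in WT chow and 56.8, 52.8 and 64 CPM in WT HFD, with meKO libraries at 58.4, 53.1 and 42.2 CPM on chow and 57.1, 62.3 and 51.3 CPM on HFD. Eif4ebp2 was at 29.4, 32.9 and 23 CPM in WT chow and 18.1, 17.7 and 13.9 CPM in WT HFD, with meKO libraries at 18.9, 17.3 and 19.7 CPM on chow and 19.9, 10.5 and 11.8 CPM on HFD. For both genes the WT groups did not overlap and the meKO groups did. Eif4ebp1 rose in WT by 0.63 ± 0.15 (adjusted p = 0.0197; 0.15 ± 0.15 in meKO, adjusted p = 0.632), and Eif4ebp2 changed by -0.78 ± 0.21 (adjusted p = 0.0251; -0.40 ± 0.21 in meKO, adjusted p = 0.359). The count ratio of Eif4ebp1 to Eif4ebp2 was 1.1, 1.06 and 1.97 in WT chow and 3.14, 2.98 and 4.61 in WT HFD, a description with no test. In meKO it was 3.09, 3.08 and 2.14 on chow and 2.87, 5.91 and 4.36 on HFD, so the WT chow libraries had the 3 lowest ratios of the 12. The ratio is not corrected for length, and the longest transcripts have 1997 bases (Eif4ebp1) and 5784 bases (Eif4ebp2). WT chow replicates 1 and 2 are the libraries with the strong length trend. With the length and GC correction Eif4ebp1 was still called in WT (0.47), and Eif4ebp2 was not (-0.38, edgeR adjusted p = 0.0995).

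**Figure D3:**
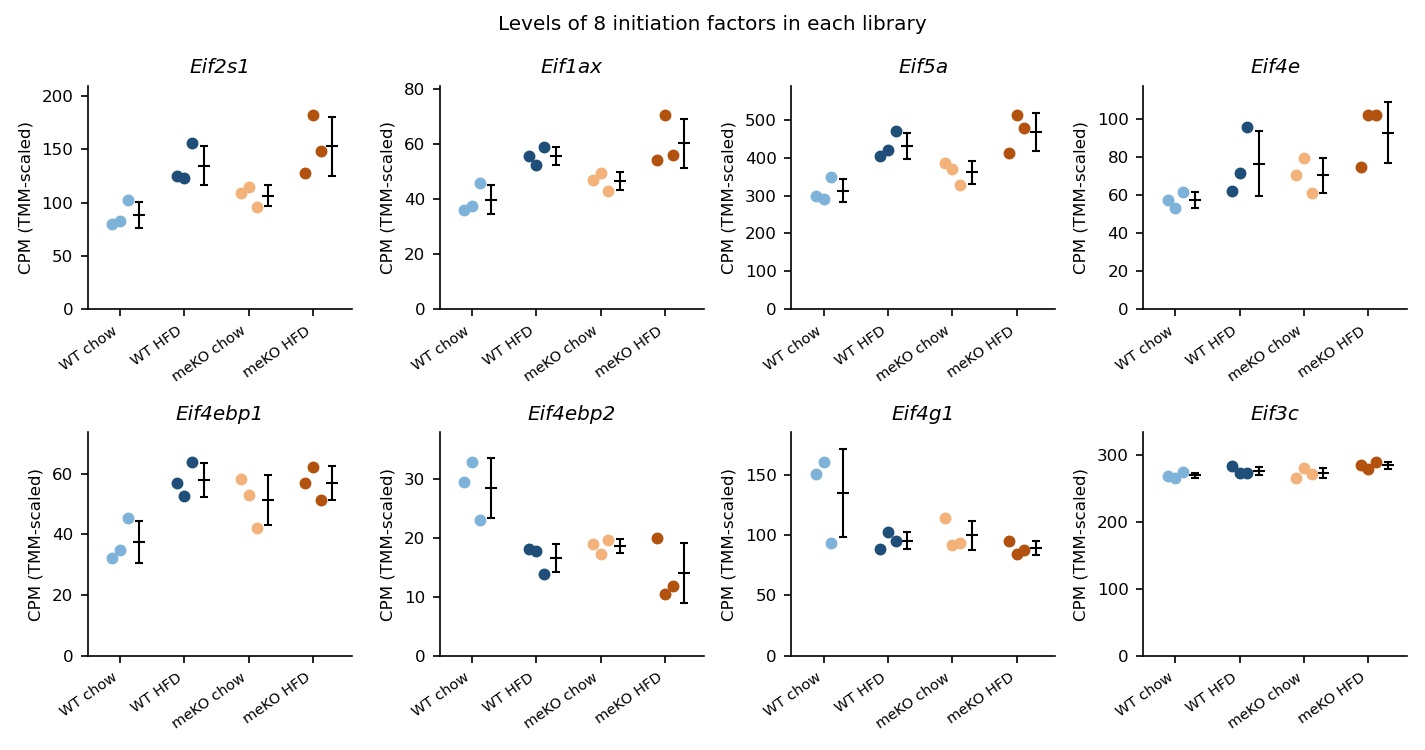
CPM of 8 initiation factors in each library (points, 3 per group), with the mean and SD of each group beside them in black; axes start at 0. Eif2s1, Eif1ax and Eif5a are higher in all HFD libraries than in any chow library of the same genotype, Eif4g1 is high in 2 WT chow libraries, and Eif3c stays between 266 and 290 CPM.

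Of the factors that act at or after subunit joining, Eif5a (chr11:69916712-69921958) had the second smallest p in the average over genotypes. It was at 298, 292 and 349 CPM in WT chow and 403, 420 and 469 CPM in WT HFD, with meKO libraries at 386, 371 and 327 CPM on chow and 412, 512 and 477 CPM on HFD. No HFD library overlapped chow within a genotype (0.46 ± 0.12 in WT, adjusted p = 0.0219, and 0.37 ± 0.12 in meKO, adjusted p = 0.209). Eif6 keeps the large ribosomal subunit from joining too early. It was at 44.2, 43.6 and 54.5 CPM in WT chow and 53.8, 63.3 and 71.5 CPM in WT HFD, with meKO libraries at 59, 57.9 and 52.9 CPM on chow and 63.4, 68 and 75 CPM on HFD. The WT groups overlapped by 1 library, and the change was 0.41 ± 0.13 in WT (adjusted p = 0.0402) and 0.28 ± 0.13 in meKO (adjusted p = 0.306).

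Eif5b was at 170, 154 and 131 CPM in WT chow and 111, 122 and 114 CPM in WT HFD, with meKO libraries at 129, 131 and 147 CPM on chow and 125, 115 and 134 CPM on HFD. WT chow was wholly above WT HFD, with a change of -0.39 ± 0.11 (adjusted p = 0.0297), and the meKO groups overlapped (-0.12 ± 0.11, adjusted p = 0.59).

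The diet calls in WT went with transcript length. The 9 genes called higher had a median longest transcript of 1997 bases (909 to 5172) and the 5 called lower one of 5784 bases (5125 to 8134), against 2514 bases for the 37 others. Across the 51 factors, Spearman's rho between length and the WT diet change was -0.44, and across 11532 genes it was -0.57. For the meKO diet change it was -0.45 across the factors and -0.34 across the genes. These are descriptions over genes that share libraries. Within WT chow the factors' deviations followed length with a rho of 0.55 and 0.43 in replicates 1 and 2 and -0.21 in replicate 3. When each library was corrected for a smooth trend in length and GC content, 8 of 51 factors were called for diet in WT, 7 higher and 1 lower, or 15.7% against 12.1% of all genes. Of the 14, 6 were among these 8: Eif2s1 (0.60), Eif1ax (0.63), Eif2d (0.51), Eif4ebp1 (0.47), Eif2b5 (0.32) and Eif5a (0.27). Eif4h (0.33) and Eif4e3 (-0.41) were added.

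After the correction none of the 5 genes that fell in WT was called. Eif4g1 stood at -0.05, Eif5b at -0.08, Eif3a at -0.18, Eif4g3 at -0.24 and Eif4ebp2 at -0.38, and among the genes that rose Eif3i (0.25), Eif6 (0.27) and Eif3k (0.06) were no longer called. In the average over genotypes 15 were called with the correction, 12 higher and 3 lower, or 29.4% against 23% of all genes; 14 of them were among the 23. The 9 lost were Eif2s2 (0.20), Eif2b1 (0.16), Eif4a1 (0.10), Eif3k (-0.02), Eif4g1 (-0.04), Eif5b (-0.08), Eif3a (-0.13), Eif4b (-0.17) and Eif4g3 (-0.22). The 3 lower were Eif4ebp2 (-0.34), Eif4e3 (-0.34) and Eif3f (-0.43). The part of RNA quality or library handling in the length trend was not tested.

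**Figure D4:**
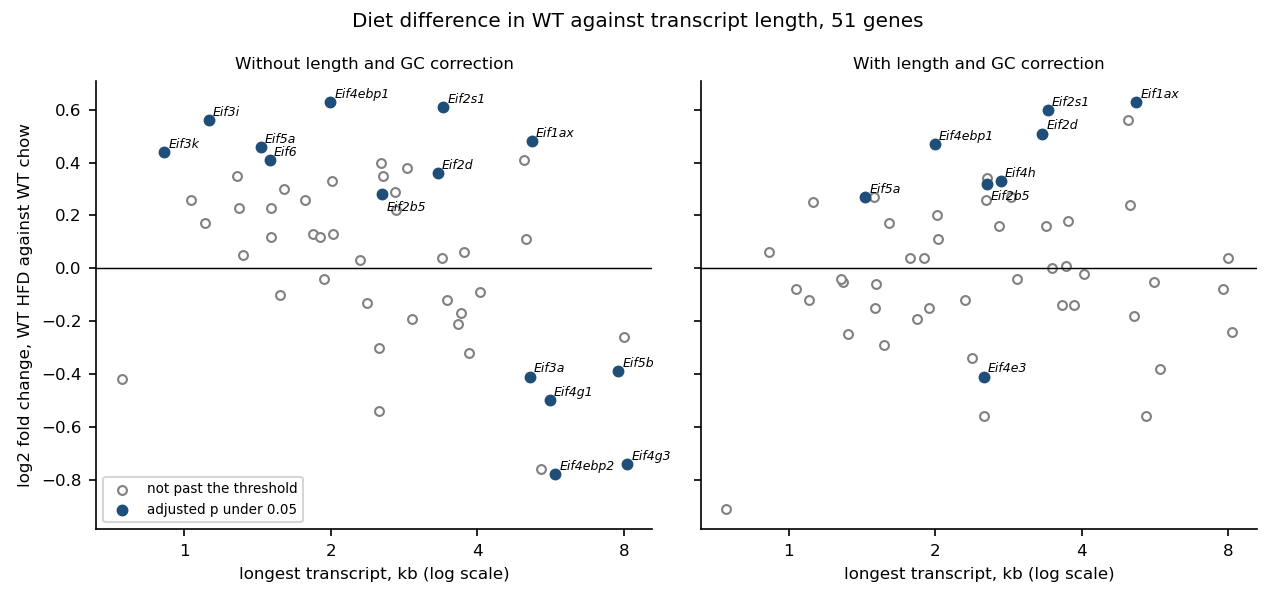
Log2 fold change of WT HFD against WT chow for the 51 genes against the length of the longest transcript in kilobases (log axis), without (left) and with (right) correction of each library for length and GC content; filled points had an adjusted p under 0.05. On the left the 5 filled points below 0 are all at 5125 bases or longer, and on the right a single filled point, Eif4e3, is below 0.

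Markers of other cells in the lavage were summed as a description, with no test. Markers of mesothelium and fibroblasts (10 of 10 listed) summed to 51.8 to 91.1 CPM in WT chow and 94.2 to 139 CPM in WT HFD, and to 52 to 95.7 CPM in meKO chow and 111 to 139 CPM in meKO HFD, with no overlap in either genotype. B cell markers (7 of 8 listed) summed to 113 to 173 CPM in WT chow and 54.7 to 91.6 CPM in WT HFD, and to 78.2 to 169 and 57.5 to 116 CPM in meKO. Neutrophil markers (7 of 10 listed) summed to 156 to 200 CPM in WT chow and 141 to 150 CPM in WT HFD, and to 165 to 192 and 172 to 188 CPM in meKO. In meKO the B cell and neutrophil sums overlapped between diets. The part of these other cells in the diet differences of the factors was not tested. In bulk RNA, fewer cells of a type and less RNA per cell cannot be told apart.

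Promoters were read for the 40 factors with an entry in the promoter set used here (RefSeq, GRCm38.p6). For each factor the 250 bases before every start with an entry were read on both strands. A match before any of a gene's starts counted for the gene. The E-box CACGTG, which MYC and the TFE3 and TFEB family are known to bind, was in 9 of 40 (22.5%). Counted in the same way, it was in 10.1% of the 9553 genes of the table with an entry. Of all 32851 windows counted singly, which is another measure, 6.02% held it. Among factors called for diet in the average it was in 5 of 11 called higher (45.5%: Eif3k, Eif4a1, Eif4e, Eif4h and Eif5a) and in 2 of 7 called lower (28.6%: Eif3f and Eif4g1). The amino acid response element TGATGNAA, which ATF4 is known to bind, was in 1 of 40, Eif2s3x (2.5%, against 2.43% of the table's genes), and the ETS motif CCGGAAG in 12 of 40 (30%, against 16.3%). With the length and GC correction 3 of the 7 E-box genes called in the average were no longer called: Eif3k (-0.02), Eif4a1 (0.10) and Eif4g1 (-0.04). A match is a description of the letters alone. The stretches below, which lie outside annotated exons and run 5′ to 3′ on the gene's strand with the E-box in capitals, are printed to show that genes called higher (Eif4a1 and Eif4h) and lower (Eif4g1 and Eif3f) carry the same 6 letters.
Eif4a1 (chr11:69672424-69672673, minus strand): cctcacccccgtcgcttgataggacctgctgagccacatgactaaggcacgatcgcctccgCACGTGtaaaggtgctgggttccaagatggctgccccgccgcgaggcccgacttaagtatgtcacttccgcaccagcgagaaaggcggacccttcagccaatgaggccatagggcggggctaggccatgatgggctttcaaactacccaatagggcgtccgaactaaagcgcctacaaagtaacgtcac
Eif4h (chr5:134639491-134639659, minus strand): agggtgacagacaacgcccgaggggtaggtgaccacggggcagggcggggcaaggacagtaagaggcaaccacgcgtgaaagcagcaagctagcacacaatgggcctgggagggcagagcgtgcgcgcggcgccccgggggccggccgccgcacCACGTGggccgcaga
Eif4g1 (chr16:20672477-20672719, plus strand): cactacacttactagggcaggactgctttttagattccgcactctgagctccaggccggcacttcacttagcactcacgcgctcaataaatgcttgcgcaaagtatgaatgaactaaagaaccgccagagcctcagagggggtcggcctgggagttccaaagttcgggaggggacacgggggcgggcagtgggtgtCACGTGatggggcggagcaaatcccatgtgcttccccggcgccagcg
Eif3f (chr7:108934165-108934414, plus strand): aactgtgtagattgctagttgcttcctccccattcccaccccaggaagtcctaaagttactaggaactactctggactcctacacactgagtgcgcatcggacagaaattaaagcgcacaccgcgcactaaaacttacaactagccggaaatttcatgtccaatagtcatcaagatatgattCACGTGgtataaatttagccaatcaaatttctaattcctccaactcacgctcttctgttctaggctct

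The controls of initiation were read from gene lists, described by counts in WT on HFD. Over all genes 9.5% were called higher and 11.8% lower there, and 14.9% and 15.3% in the average over genotypes. With the length and GC correction 840 of 12339 genes were called higher and 650 lower in WT, and 1491 and 1341 in the average. Of 13 eIF2 kinase and integrated stress response genes measured (14 listed), 3 rose and 3 fell, with a median log2 change of 0.04 against -0.03 for all genes. The PERK kinase gene Eif2ak3 changed by -0.66 ± 0.17 (adjusted p = 0.0213) and Gcn1, the partner of GCN2, by -0.70 ± 0.18 (adjusted p = 0.0233); with the length and GC correction Eif2ak3 stood at -0.37 and was still called, and Gcn1 at -0.14 (adjusted p = 0.395) and was not. Nck1, an adaptor that recruits an eIF2 phosphatase, changed by 0.65 ± 0.14 (adjusted p = 0.0143). In the average over genotypes 3 of 13 rose and 5 fell; among the 3 were the stress genes Ddit3 (0.55 ± 0.12, adjusted p = 0.00886) and Asns, asparagine synthetase (1.08 ± 0.25, adjusted p = 0.0101). Their corrected values were 0.24 and 0.93, both still called. With the correction 2 of the 13 genes rose and 2 fell in WT, and 4 rose and 2 fell in the average.

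Of 21 genes of mTORC1 and MNK control, 1 rose and 6 fell in WT, with a median of -0.27. With the length and GC correction none rose, 1 fell and the median was -0.02. Pdcd4, an inhibitor of eIF4A, changed by -0.95 ± 0.19 (adjusted p = 0.0123) and by -1.11 with the correction. Mtor changed by -0.60 ± 0.16 (adjusted p = 0.0255), but by -0.08 with the correction, and Rheb, the GTPase that activates mTORC1, rose by 0.53 ± 0.15 (adjusted p = 0.0293), but was at 0.30 and not called with the correction (adjusted p = 0.0524). In the average 1 rose and 3 fell, and 1 rose and 2 fell with the correction.

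Among 20 initiation partners measured none rose and 3 fell in WT: Gigyf1 (-0.97 ± 0.15, adjusted p = 0.00541) and Gigyf2 (-0.78 ± 0.15, adjusted p = 0.0114), which work with the cap-binding repressor 4EHP, and the poly(A)-binding protein gene Pabpc1 (-0.66 ± 0.17, adjusted p = 0.0231). The corrected values were -0.51, -0.44 and -0.67, all still called. With the correction 1 rose and 3 fell in WT. In the average 4 rose and 3 fell, with and without the correction. Of 18 elongation, hypusination and release genes, 3 rose and 1 fell in WT, and 5 rose and 2 fell in the average. With the length and GC correction 3 rose and none fell in WT, and 8 rose and 3 fell in the average. Dhps, which starts the hypusination of eIF5A, rose by 0.51 ± 0.12 in WT (adjusted p = 0.0174), and Eef2k, the kinase that inhibits elongation factor 2, changed by -0.78 ± 0.16 (adjusted p = 0.0118). With the correction neither was called in WT (Dhps 0.29, adjusted p = 0.071, and Eef2k -0.39, adjusted p = 0.0898). No gene of the 4 lists was called for diet in meKO or in a genotype contrast.

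Genotype was compared on each diet and over both. On chow no factor was called between meKO and WT by edgeR, which called 0.081% of all genes. At an unadjusted p under 0.05 there were 5 (2 higher, 3 lower; 9.8% against 19.8% of all genes): Eif4g3 (-0.72 ± 0.22, adjusted p = 0.125), Eif4ebp1 (0.45 ± 0.15, adjusted p = 0.148), Eif4ebp2 (-0.61 ± 0.21, adjusted p = 0.153), Eif4g1 (-0.44 ± 0.17, adjusted p = 0.186) and Eif2d (0.24 ± 0.10, adjusted p = 0.21). This contrast shares the WT chow libraries with the diet contrast in WT. Its differences also went with transcript length (Spearman's rho -0.42 over the factors and -0.64 over 11532 genes). With the length and GC correction Eif4g3 stood at -0.24, Eif4ebp1 at 0.34, Eif4ebp2 at -0.27, Eif4g1 at -0.08 and Eif2d at 0.32, and no factor was called. DESeq2 called 1 factor lower, against 4.79% of all genes, and limma-voom with library quality weights called 19, 14 higher and 5 lower, against 32.8%. Without WT chow replicate 3, edgeR called 10.

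On HFD no factor was called between genotypes by edgeR (0.081% of all genes), and none had an unadjusted p under 0.05 (4.56% of all genes). DESeq2 called none (0.43% of all genes). Limma-voom called none without weights (0.0405% of all genes) or with them (1.04%). Averaged over diets the count was again 0 by edgeR (0.17% of all genes) and 0 by DESeq2 (2.97% of all genes). There were 6 at an unadjusted p under 0.05 (17.7% of all genes), and limma-voom with library quality weights called 18, 15 higher and 3 lower, against 31.1% of all genes. By edgeR there were 3 without WT chow replicate 3 and 1 without meKO HFD replicate 1. The sizes that 3 libraries against 3 could show are limited, but they were not measured for these data. In counts simulated for the diet contrast in WT, 50 genes were changed at each size. Of those changed 1.5-fold 32% were recovered, and of those changed 2-fold 74%. The simulated libraries had no length trend, and far fewer genes changed in them than the 21.3% called for diet in WT. These shares therefore do not carry over to the contrasts above.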

How the data were processed

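Counts per gene were measured by RNA sequencing in 12 libraries; per the labels, RNA was taken with Trizol and libraries were made with TruSeq. The authors deposited whole-number counts per gene. The submitters' processing notes name mm10 and DESeq2; the aligner, the counter and the strand setting are not given in the sources used here. The 186 genes with an Entrez identifier but no symbol (0.44% of counts) stayed in the tests.

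Groups came from the sample titles. Replicates of a group were not copies: chi-square per degree of freedom was at least 16.9 in 12 pairs, and Pearson's r of log2 CPM was 0.981 to 0.993. The main test was edgeR 4.0.16's quasi-likelihood F test, two-sided (R 4.3.3; TMM factors, filterByExpr, which kept all 12339 genes, robust dispersions) with 4 group means over 12 libraries and 7 contrasts, adjusted by Benjamini-Hochberg over all genes. Alternatives used DESeq2 1.42.0, limma 3.58.1 and, for length and GC content, an mgcv 1.9.3 smooth in each library over the 11532 genes with GENCODE M21 transcripts. A single gene tested by permutation of 3 against 3 could not go below p = 0.1. Other settings were median-of-ratios factors, library totals, a minimum of 10 counts, dispersions that were not robust, the compared libraries alone and each library left out. The edgeR step was tested on simulated data. Promoters and positions are RefSeq GRCm38.p6.

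Any factor could be named with its level. Values in every library were given for up to 8 called factors per contrast with the smallest p and for 13 always named (Eif4e, Eif4g1, Eif4a1, Eif4ebp1, Eif4ebp2, Eif2s1, Eif2s3x, Eif2s3y, Eif2b5, Eif3a, Eif5, Eif5a and Eif6), and up to 3 genes per other list and contrast were eligible. Values of Eif3j1 in single libraries were added after they were seen. The members, lists and tests were chosen with earlier results of these data known. Marker lists of T and NK cells (9.05 to 19.7 CPM summed), mast cells and eosinophils (66.8 to 351 CPM) and red blood cells (1.15 to 42.6 CPM) were also read.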

Additional observations from a re-analysis of the deposited data

How the results depend on the processing

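The number of factors called for diet in WT, 14 by edgeR, ranged from 0 to 29 when a library was left out. It was 0 without WT chow replicate 1, WT chow replicate 2 or WT HFD replicate 3, 1 without WT HFD replicate 1, 7 without WT HFD replicate 2 and 29 without WT chow replicate 3. The length and GC correction gave 8 (15.7%, against 12.1% of all genes) and the 6 WT libraries alone 7. Library quality weights gave 33 (64.7%, against 52% of all genes) and DESeq2 21 (41.2%, against 28%). Without WT chow replicates 1 and 2 together it was 0. Scaling by library totals gave 13 with 5 higher and 8 lower, against 9 and 5. Averaged over genotypes, 23 became 7 to 32 with a library left out: 9 without WT chow replicate 1 or 2, 13 without WT HFD replicate 1 or meKO HFD replicate 3, 8 without WT HFD replicate 3, 7 without meKO chow replicate 3 and 10 without meKO HFD replicate 2. It was 19 without meKO chow replicate 2, the library low in Lyz2. It was 15 with the correction and 0 without WT chow replicates 1 and 2; library totals gave 18, 9 higher and 9 lower, against 15 and 8. For genotype on chow 0 became 1 with DESeq2 (1.96%, against 4.79% of all genes) and 19 with weights (37.3%, against 32.8%). It was 0 to 10 with a library left out (10 without WT chow replicate 3). For genotype averaged over diets it became 18 with weights (35.3%, against 31.1% of all genes) and 0 to 3 with a library left out (3 without WT chow replicate 3, 1 without meKO HFD replicate 1). Weights gave 2 for diet in meKO (3.92%, against 3.23% of all genes) and 1 for the interaction (1.96%, against 2.39%). Genotype on HFD stayed at 0 under the 23 alternatives run. Of single values called by edgeR, 3 changed sign: Eif3k for diet averaged, -0.02 with the correction, and Eif4g1 (0.03) and Eif4g3 (0.01) for diet in WT without WT chow replicates 1 and 2. The cause of these changes was not tested. Single values were counted over the factors called in any contrast or always named, not over all 51. Of these values 3624 kept their sign and side of the threshold, 262 were no longer past it and 75 became so. A further 144, called neither by edgeR's main test nor under the alternative, changed sign. No paired analysis was possible because the labels number no replicates across groups.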
